A study of Mus musculus with 23 samples.

Results

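The motile cilia genes are 42 mouse genes chosen by name: regulators that switch on the programme for many motile cilia, parts of the ciliary skeleton and its motors, and genes that mark ciliated cells of the airway. Of the 42 symbols, 40 have a row in the deposited tables of 24411 genes. Dnah3 and Dnah12 were not analysed here. The 40 genes were followed in bulk RNA sequencing of mouse lung, with 23 libraries in 7 groups. Rarres1 knockout (KO) lungs were set beside wild-type (WT) lungs at embryonic day 19.5 (E19.5), with 3 libraries of each genotype, and at 10 months, again with 3 of each. At 18 months there were 3 lung tumours of KO mice (numbered 1, 3 and 6), 5 KO non-tumour lungs (numbered here by their codes 1, 2, 3, 6 and 7) and 3 WT lungs. All mice had a C57BL/6 background, were untreated and were housed under barrier conditions, and the mice of 10 and 18 months were males. The labels give no sex for the embryos and no details of the knockout allele. Total counts per library ran from 23.7 to 46.6 M, in units of 1000000 counts. Rarres1, a retinoid-responsive gene, had 0 or 1 reads in each KO library and 24 to 64 reads in each WT library.

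Ciliated cells of the airway carry many motile cilia that beat together and move mucus out of the lung. Each cilium is built on an axoneme, a ring of doublet microtubules around a central pair, and dynein arms on the doublets slide them past each other. Multicilin and cyclin O act early, when a precursor makes many centrioles at once. The transcription factors FOXJ1 and RFX then drive the genes of the axoneme, and loss of single axonemal parts causes primary ciliary dyskinesia in humans.

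RFX factors bind the X-box, an imperfect inverted repeat, and promoter stretches of members with a match to it are shown. Whether a match goes with the changes described below was not tested. The X-box was searched on both strands as GTNNCC and NGNAAC with 0 to 3 bases between them, from 250 bases before to 50 bases after the RefSeq start. Of the 40 genes, 36 had an entry, and 17 of these (47.2%) held a match, against 1606 of 27025 genes in the whole table (5.94%). In 8 genes a match lay wholly before the start and outside the annotated gene. The 60 bases around each of these matches are given in GRCm38.p6 coordinates from RefSeq, read along the strand of the gene, with the match in capitals.
Enkur, which encodes a protein inside the doublet microtubules, chr2:21205366-21205425, minus strand: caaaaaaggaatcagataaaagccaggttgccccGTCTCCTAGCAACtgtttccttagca
Spag17, a central pair protein, chr3:99885185-99885244, plus strand: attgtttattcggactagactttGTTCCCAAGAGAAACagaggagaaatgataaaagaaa
Tekt2, a tektin filament protein, chr4:126325689-126325748, minus strand: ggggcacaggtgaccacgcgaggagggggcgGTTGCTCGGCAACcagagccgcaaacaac
Dynlrb2, a dynein light chain, chr8:116504940-116504999, plus strand: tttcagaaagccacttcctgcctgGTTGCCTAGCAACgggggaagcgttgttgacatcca
Ccdc153, a ciliated cell gene, chr9:44240520-44240579, plus strand: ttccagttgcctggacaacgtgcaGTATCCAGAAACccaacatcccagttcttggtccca
Dnah9, an outer arm dynein heavy chain, chr11:66168598-66168657, minus strand: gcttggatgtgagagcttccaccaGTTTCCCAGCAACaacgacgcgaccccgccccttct
Ccno, cyclin O, chr13:112987560-112987619, plus strand: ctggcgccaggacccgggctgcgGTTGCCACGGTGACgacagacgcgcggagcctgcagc
Rfx2, itself an RFX factor, chr17:56831088-56831147, minus strand: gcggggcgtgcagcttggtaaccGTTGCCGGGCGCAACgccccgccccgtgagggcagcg
The matches of Tekt2 and Ccno run along the opposite strand. Among other lists of ciliary genes, a match was held by 27 of 68 further axoneme genes (39.7%), 4 of 8 dynein assembly genes, 5 of 26 genes of intraflagellar transport (19.2%) and 0 of 14 genes of the multiciliation programme. The forkhead motif GTAAACA, also searched on both strands, was held by 3 of the 36 members (8.33%) and by 4.05% of all genes in the table. These matches describe letters and were not tested as binding sites.

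Levels of different genes were compared in FPKM, which divides by gene length. In WT lung at 10 months Tppp3, a tubulin-binding protein abundant in ciliated cells, was the highest member with 548.6 FPKM. It was followed by the dynein light chain Dynlrb2 (96.8 FPKM), Ccdc153 (95.96 FPKM) and Foxj1 (62.0 FPKM). The motor genes lay far lower, with 5.10 FPKM for Dnah5 and 2.02 FPKM for Dnah11, both heavy chains of the outer dynein arm. At the bottom stood cyclin O (Ccno, 1.55 FPKM) and multicilin (Mcidas, 0.247 FPKM). In embryos the early regulators stood higher: Ccno had 6.68 FPKM in KO and 6.43 FPKM in WT, and Mcidas had 1.25 FPKM in each. In the tumours Tppp3 had 174.4 FPKM, Foxj1 21.4 FPKM and Mcidas 0.123 FPKM. Ccno and Mcidas are neighbours on chromosome 13 (chr13:112987802-112990778 and chr13:112993581-113000394 in GRCm38), with 2803 bases between them.

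**Figure D1:**
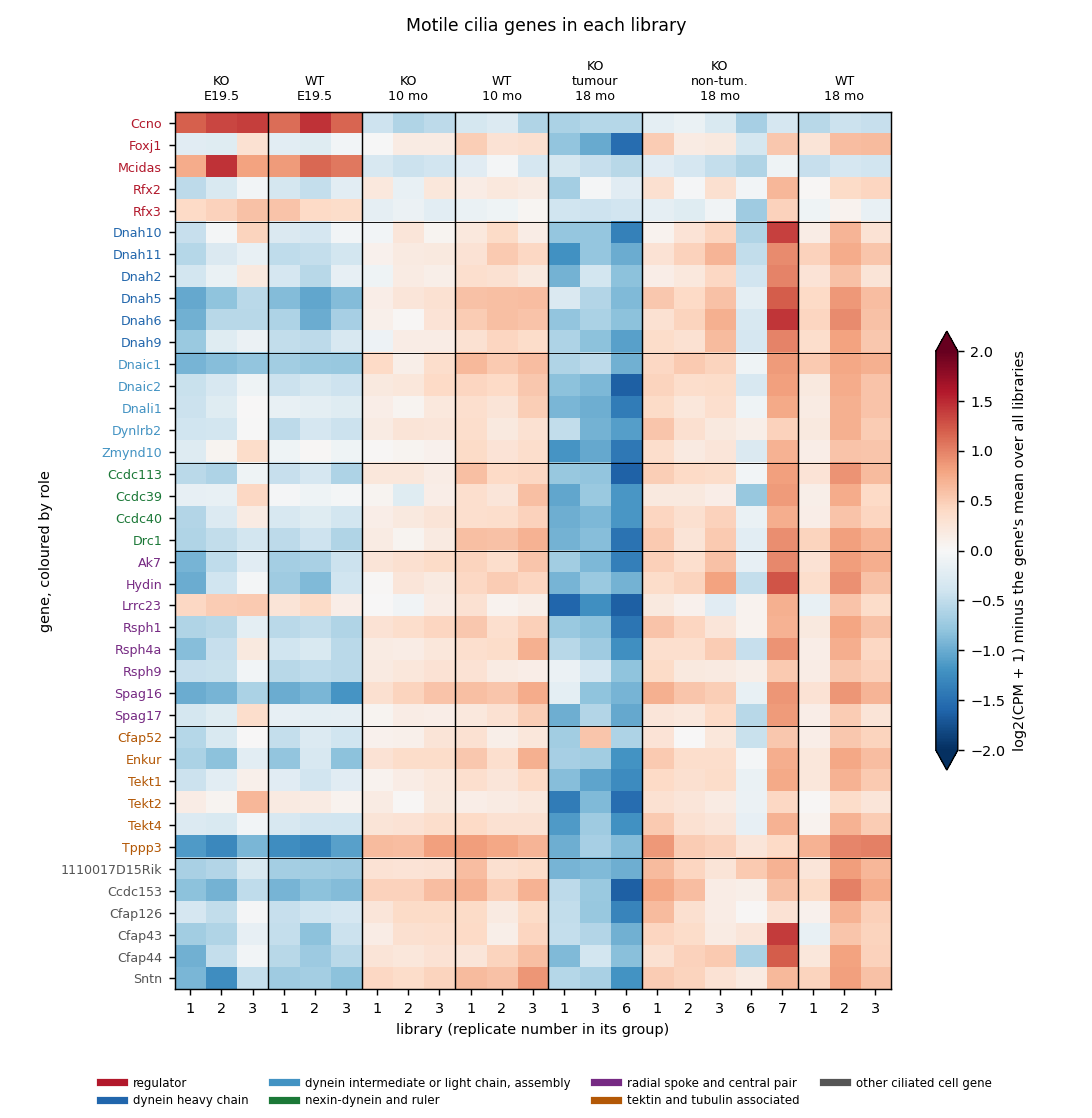
Each row is a motile cilia gene, coloured by role, and each column a library. The colour gives log2(CPM + 1) minus the gene's mean over the 23 libraries, red for higher and blue for lower; most axonemal genes were low in embryos and in tumours, while Ccno and Mcidas were high in embryos.

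In several groups 1 library held the highest or the lowest value of most members. KO embryo 3 held the highest value of its group in 39 of the 40 genes, and KO embryo 1 the lowest in 31. Tumour 6 was the lowest tumour in 32 genes. Among KO non-tumour lungs, lung 7 was highest in 35 genes and lung 6 lowest in 37, and among WT lungs of 18 months lung 2 was highest in 37 and lung 1 lowest in 38. Summed over the 40 genes in TMM-scaled counts per 1000000 counts (CPM), KO non-tumour lung 7 reached 2338 CPM and lung 6 had 1235 CPM. Among KO lungs of 10 months, lung 3 was highest in 29 genes and lung 1 lowest in 22. Such a pattern of highest values was weaker among WT embryos, with 10, 17 and 13 genes. It was also weaker among WT lungs of 10 months, with 14, 8 and 18. In bulk tissue, fewer ciliated cells and less RNA per ciliated cell cannot be told apart.

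Adult lung was compared with late fetal lung within each genotype, which asks how the ciliary programme differs between the end of gestation and adulthood. In WT, 35 of the 40 members were higher at 10 months than at E19.5, against 31.6% of all genes, while the early regulators multicilin and cyclin O were lower. Tppp3 averaged 454.9 ± 26.5 CPM at 10 months and 115.5 ± 9.66 CPM at E19.5 (SD, n = 3 each), a 3.91-fold rise. Cyclin O was 3.98-fold lower and multicilin 4.79-fold lower at 10 months. Values by library showed no overlap for these genes.

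Of the 40 members tested in WT, 35 rose, 3 fell and 2 did not pass the test (edgeR's quasi-likelihood test with Benjamini-Hochberg adjustment over all genes, called at an adjusted p under 0.05). Of all 15619 genes, 31.6% were called higher and 31.2% lower in this comparison, so a call by itself was common at either sign. The members' median log2 fold change was 0.80. Among motor genes, Dnah5 had 78.8, 79.3 and 79.8 CPM at 10 months, against 27.9, 24.7 and 28.0 CPM at E19.5 (1.55 ± 0.071, SE; adjusted p = 2.22e-07). The intermediate chain gene Dnaic1 rose by 1.46 ± 0.098 and the inner arm heavy chain Dnah6 by 1.32 ± 0.10 on the log2 scale. All 6 heavy chain genes rose, with Dnah10 at the low end (0.48). Of the radial spoke and central pair genes 7 of 8 rose, led by Spag16, a central pair protein (1.74 ± 0.10), and including Rsph1, a spoke head protein (1.01 ± 0.080). All 4 genes of the nexin-dynein links and the axonemal ruler rose, with Drc1, a link subunit, at 1.18 ± 0.085.

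Of the tektin and tubulin group 5 of 6 rose, with Tppp3 at 1.97 ± 0.083 (adjusted p = 1.48e-07). All 6 other ciliated cell genes rose, among them Ccdc153 (1.52 ± 0.081), Sntn, which encodes sentan of the cilium tip (1.55 ± 0.11), and 1110017D15Rik (1.21 ± 0.11). Tekt2 (0.02) and Lrrc23, a radial spoke protein (−0.11), did not pass.

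The 5 regulators split. Foxj1, the forkhead factor of motile cilia, had 161.5, 141.2 and 143.4 CPM in WT lungs of 10 months, against 99.4, 97.3 and 110.9 CPM in WT embryos, without overlap (0.52 ± 0.080, adjusted p = 0.000332). Rfx2 also rose (0.53), and Rfx3, another RFX factor, fell (−0.54 ± 0.089, adjusted p = 0.000543). Ccno had 2.74, 2.95 and 2.16 CPM at 10 months, against 9.34, 12.0 and 9.70 CPM at E19.5. Its log2 fold change was −1.99 ± 0.17 (adjusted p = 8.94e-06). Mcidas had 0.508, 0.712 and 0.396 CPM at 10 months, against 2.19, 2.89 and 2.67 CPM at E19.5 (−2.26 ± 0.29, adjusted p = 0.000117). Both early regulators were thus separated completely by age in WT.

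In KO lung, 23 members rose between E19.5 and 10 months, 4 fell and 13 did not pass, where 31.1% of all 15626 genes were called higher and 29.4% lower. The median of the members was 0.52. Tppp3 had 413.9, 412.0 and 475.9 CPM at 10 months, against 121.2, 108.9 and 142.3 CPM at E19.5, and rose without overlap (1.80 ± 0.11, adjusted p = 5.22e-06). Dnah5 had 57.0, 61.3 and 64.3 CPM at 10 months, against 24.9, 29.3 and 35.4 CPM at E19.5 (1.02 ± 0.13, adjusted p = 0.000181). Other genes that rose were Spag16 (1.36 ± 0.13), Ccdc153 (1.28 ± 0.12), Dnaic1 (1.28 ± 0.13), Sntn (1.37 ± 0.20), 1110017D15Rik (0.84 ± 0.12), Rsph1 (0.82 ± 0.12), Dnah6 (0.82 ± 0.13) and Drc1 (0.65 ± 0.098).

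Ccno had 2.58, 2.17 and 2.33 CPM in KO lungs of 10 months, against 9.99, 11.1 and 11.5 CPM in KO embryos (−2.20 ± 0.14, adjusted p = 5.26e-06). Mcidas had 0.409, 0.305 and 0.353 CPM at 10 months, against 1.94, 3.80 and 2.08 CPM at E19.5 (−2.85 ± 0.36, adjusted p = 0.000208). Both fell without overlap, as did Rfx3 (−0.69 ± 0.084) and Lrrc23 (−0.46 ± 0.081). Foxj1 had 114.7, 129.4 and 128.6 CPM at 10 months, against 97.9, 96.8 and 141.8 CPM at E19.5, so that the ages overlapped through embryo 3 (0.14 ± 0.15, adjusted p = 0.444). Without KO embryo 3 Foxj1 was called (0.35, adjusted p = 0.00448) and 36 members were called in place of 27. The share of all genes called in that refit is not given here.

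**Figure D2:**
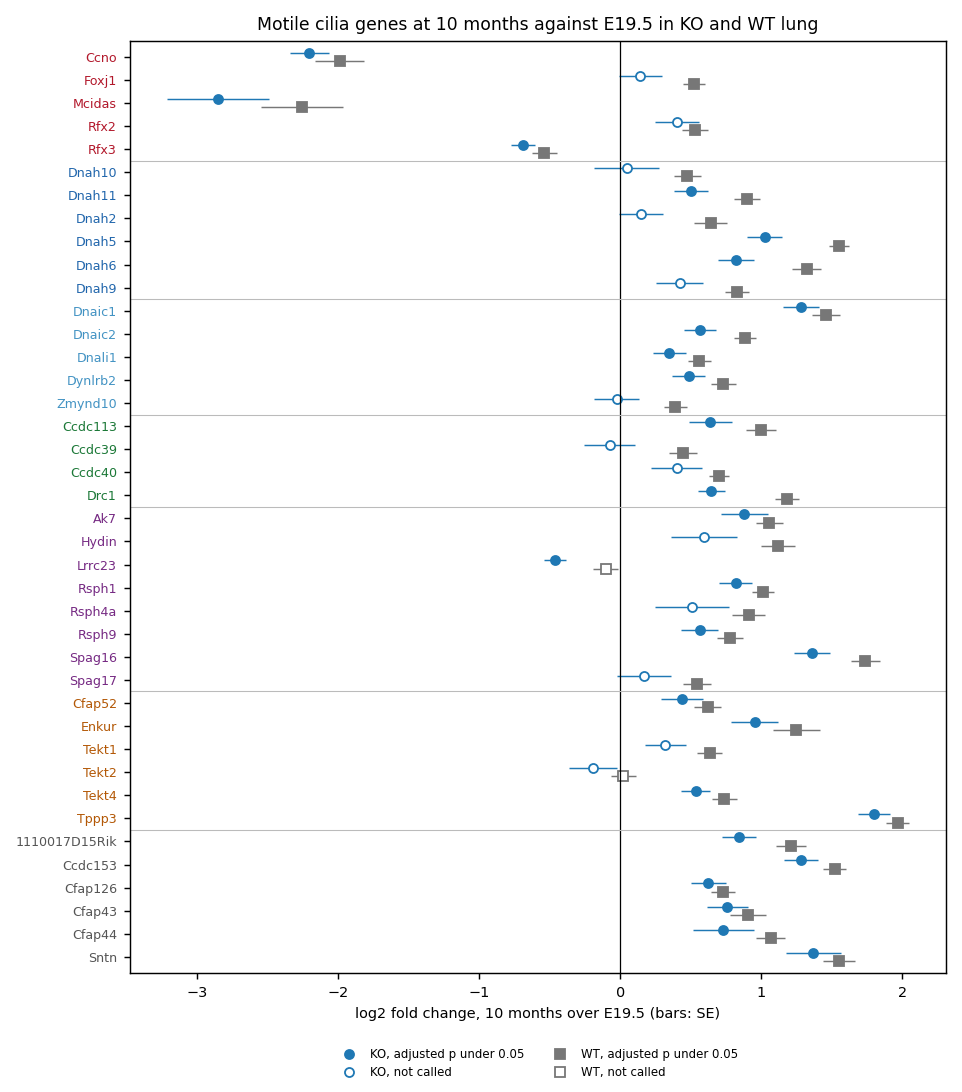
Log2 fold change of each motile cilia gene at 10 months over E19.5, with its SE, in KO (blue circles) and WT (grey squares) lung; filled symbols passed the test. Most genes lie to the right of 0 in both genotypes, and Ccno, Mcidas and Rfx3 lie to the left.

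Beside the members, other ciliary lists were read in the same fits. In WT 57 of 78 further axoneme genes rose and 3 fell, with Cdhr3, a cadherin of ciliated cells, at 2.00 ± 0.080. In KO 41 rose and 6 fell. Of 16 genes of the multiciliation programme 2 rose and 7 fell in WT, and 0 rose and 9 fell in KO. Foxn4, a transcription factor of early multiciliated cells, stood at −2.41 ± 0.24 in WT and −2.59 in KO, and Cdc20b at −3.49 ± 0.43 and −3.78. Of 31 genes of intraflagellar transport, which carries cargo along the cilium, 13 rose and 3 fell in WT, and 7 rose and 7 fell in KO. Markers of club cells, the secretory neighbours of ciliated cells, rose in 3 of 6 genes in WT, with the secretoglobin Scgb1a1 at 5.19 ± 0.14. Their summed level was 49920 to 56500 CPM in WT lungs of 10 months and 2669 to 2773 CPM in WT embryos. WT embryo 3 held 751.3 CPM of oesophageal markers, where the other 5 embryos held at most 2.2 CPM. Its member level of 4.27 in mean log2(CPM + 1) lay beside 4.25 and 4.26 in the other WT embryos. Cartilage markers summed to 7.81 to 17.5 CPM in WT embryos and 0.373 to 0.864 CPM in WT lungs of 10 months. In KO these sums were 8.4 to 22 CPM and 0.3775 to 0.6485 CPM. Skeletal muscle markers summed to 55.5 to 392 CPM in WT embryos and 3.52 to 36.2 CPM in WT lungs of 10 months. In KO these sums were 53.9 to 160 CPM and 2.9 to 20.3 CPM. The part of such tissue in the members' values was not tested.

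At E19.5 KO lungs were set against WT lungs, which asks whether loss of Rarres1 goes with a difference in the ciliary programme near birth. No member passed the test, and the regulators overlapped between the genotypes. Foxj1 averaged 112 ± 25.6 CPM in KO and 102.5 ± 7.35 CPM in WT (SD, n = 3 each). The summed level of the members was 866, 946 and 1216 CPM in KO embryos and 918, 903 and 953 CPM in WT embryos, so the highest and the lowest values were both in KO.

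By edgeR 0 of 40 members were called at E19.5, as were 0 of all 15307 genes (0%). DESeq2 and both limma fits on FPKM also called 0 members. An unadjusted p under 0.05 was found for 1 member and for 144 of all genes. The log2 fold change was above 0 for 37 members, with a median of 0.12, against 0.00 for all genes. Without KO embryo 3 the median was −0.03. Lrrc23 had 42.4, 45.2 and 45.6 CPM in KO embryos, against 37.8, 41.4 and 34.8 CPM in WT embryos, and was the member with the smallest unadjusted p (0.22 ± 0.085, adjusted p = 0.9999 in edgeR). Next came Rsph9, a spoke head protein (0.25 ± 0.14), and the inner arm heavy chain Dnah2 (0.28 ± 0.17). Log2 fold changes were 0.13 ± 0.15 for Foxj1, 0.01 ± 0.30 for Mcidas, 0.07 ± 0.14 for Ccno, 0.15 ± 0.13 for Dnah5 and 0.10 ± 0.11 for Tppp3. None of these 5 differed beyond the spread between embryos. The further axoneme, dynein assembly, multiciliation and transport lists held 0 called genes by edgeR as well.

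The same question was put to the adult lung at 10 months. Drc1, a subunit of the nexin-dynein link that joins the doublets, and the heavy chain genes Dnah5 and Dnah6 fell by 1.31- to 1.43-fold. The other 37 members did not pass, and 38 of the 40 had a log2 fold change below 0. Their median was −0.20, a 1.15-fold lower level in KO, and that of all genes was −0.00. Summed over the members, KO lungs had 1585, 1628 and 1754 CPM, against 1908, 1829 and 1889 CPM in WT lungs, without overlap.

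Drc1 (chr5:30281335-30366695) had 24.3, 22.5 and 24.5 CPM in KO lungs, against 33.1, 32.9 and 35.6 CPM in WT lungs. The groups did not overlap, and the log2 fold change was −0.52 ± 0.069 (adjusted p = 0.00902). Dnah5 (chr15:28154854-28472045) averaged 60.9 ± 3.70 CPM in KO and 79.3 ± 0.501 CPM in WT (SD, n = 3 each; −0.39 ± 0.063, adjusted p = 0.0224). Dnah6 (chr6:73017603-73222227) had 66.4, 62.8 and 75.4 CPM in KO lungs, against 88.3, 94.4 and 93.1 CPM in WT lungs, again without overlap (−0.44 ± 0.074, adjusted p = 0.0250). These 3 of 40 stand beside 0.946% of all 15324 genes called lower. The genotypes did not overlap, with KO lower, in 20 of 40 members, against 11.4% of all genes. An unadjusted p under 0.05 was found for 20 members and for 2670 of all genes.

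The 3 calls were not firm. Without KO lung 1 the test called 0 members, and without any one of the WT lungs it called 1, Drc1. A fit over all 7 groups called 0 (adjusted p = 0.595 for Drc1, 0.853 for Dnah5 and 0.866 for Dnah6). Limma on FPKM called 1, and DESeq2 called 5. For these other fits the shares of all genes called are not given here.

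By role, the medians at 10 months were −0.29 for the 6 heavy chain genes, −0.37 for the 4 nexin-dynein and ruler genes and −0.24 for the dynein intermediate and light chains with Zmynd10. They were −0.18 for the radial spoke and central pair genes, −0.14 for the other ciliated cell genes and −0.08 for the tektin and tubulin group. Closest to a call were Hydin, a central pair protein (−0.31, adjusted p = 0.0810), Zmynd10, a cytoplasmic factor that assembles dynein arms (−0.30, adjusted p = 0.0864), and Dnah9 (−0.31, adjusted p = 0.114). Rsph9 (0.02) and Cfap126, a basal body protein (0.01), were the 2 members above 0. Foxj1 averaged 124 ± 8.26 CPM in KO and 149 ± 11.1 CPM in WT, without overlap (−0.27 ± 0.078, adjusted p = 0.134). Mcidas (−0.60 ± 0.36), Ccno (−0.15 ± 0.19) and Tppp3 (−0.08 ± 0.079) overlapped between the genotypes.

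Of 78 further axoneme genes 3 fell in KO at 10 months, with a median of −0.18. They were Cfap53 (−0.62 ± 0.11, adjusted p = 0.0257), Mns1 (−0.66 ± 0.12, adjusted p = 0.0307) and Ccdc146 (−0.39 ± 0.075, adjusted p = 0.0421), of which the first 2 encode proteins inside the doublets. In the dynein assembly, multiciliation and transport lists 0 genes were called by edgeR, with medians of −0.11, −0.09 and −0.11. Club cell markers held 0 of 6 called, and their summed level was 45390 to 53040 CPM in KO and 49920 to 56500 CPM in WT. Heart muscle markers ranged widely, from 108 to 872 CPM in KO and from 89.9 to 1358 CPM in WT. The part of either in the members' values was not tested.

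**Figure D3:**
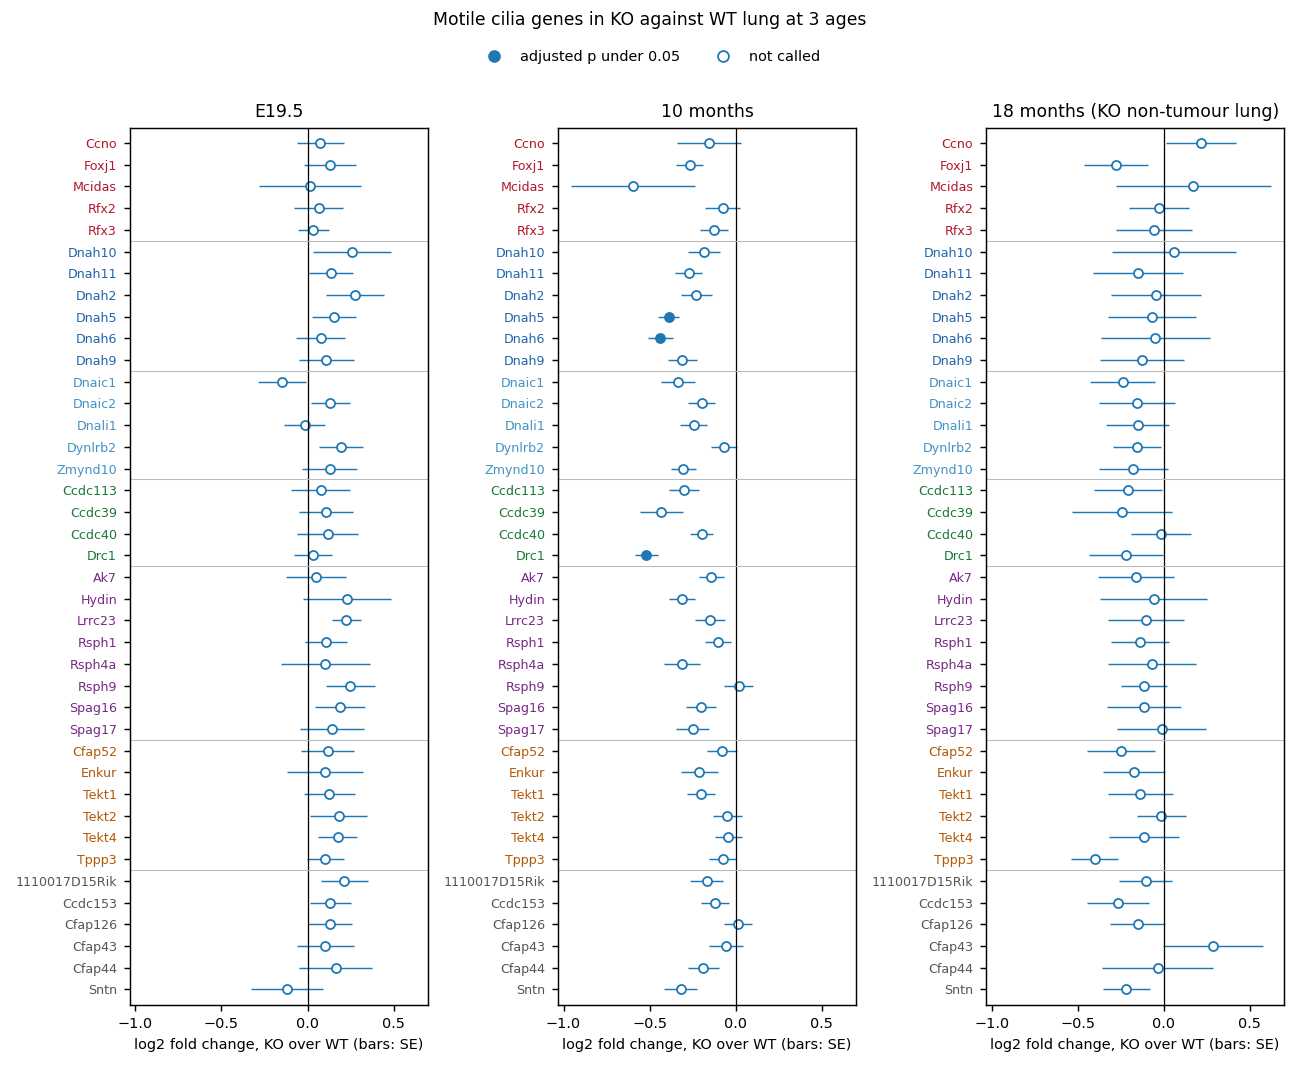
Log2 fold change of each motile cilia gene in KO over WT lung, with its SE, at E19.5, 10 months and 18 months (KO non-tumour lung); filled circles passed the test. The filled circles are Drc1, Dnah5 and Dnah6 at 10 months, and the bars are widest at 18 months.

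At 18 months KO non-tumour lungs were set against WT lungs. No member passed the test, and no member separated the groups. Foxj1 averaged 136 ± 31.5 CPM in KO (n = 5) and 164 ± 23.5 CPM in WT (SD, n = 3). By library, Foxj1 had 163.9, 129.1, 131.1, 89.8 and 167.3 CPM in KO lungs 1, 2, 3, 6 and 7, against 137.3, 177.0 and 179.0 CPM in WT lungs.

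Of 40 members 0 were called by edgeR at 18 months, against 0.0776% of all 15463 genes. DESeq2, limma and the fit over all groups called 0 as well. An unadjusted p under 0.05 was found for 1 member, Tppp3, and for 1243 of all genes. Tppp3 had 487.3, 380.3, 367.4, 315.4 and 352.8 CPM in KO lungs, against 436.6, 526.1 and 538.2 CPM in WT lungs. Only KO lung 1 reached the range of WT (−0.40 ± 0.14, adjusted p = 0.440 in edgeR). The members' median was −0.12, with 36 below 0. It was 0.01 without WT lung 2 and −0.28 without KO lung 7. Dnah5 ran from 45.4 CPM in KO lung 6 to 121.8 CPM in KO lung 7, around 68.8, 95.9 and 80.4 CPM in WT lungs (−0.07 ± 0.25). Drc1 likewise ran from 18.5 to 41.9 CPM in KO, around 29.6 to 38.7 CPM in WT. Ccno stood at 0.22 ± 0.20 and Mcidas at 0.17 ± 0.45. Club cell markers held 0 of 6 called and 0 of 6 above 0, with a median of −0.33. Their sums were 26370 to 50540 CPM in KO and 43700 to 62200 CPM in WT. Heart muscle markers summed to 66.1 to 277 CPM in KO and 401 to 517 CPM in WT. The part of either in the members' values was not tested.

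The change of the genotype effect with age was tested itself, as an interaction in edgeR. From E19.5 to 10 months 0 of 40 members were called, against 0.156% of all 15994 genes, while DESeq2 called 1, Drc1 (adjusted p = 0.0211). An unadjusted p under 0.05 was found for 11 members and for 1215 of all genes. The difference was below 0 for 40 of 40 members, against 47.9% of all genes. Its median was −0.32 for the members and 0.01 for all genes. The E19.5 effect that enters it had a member median of 0.12, or −0.03 without KO embryo 3. For Drc1 the difference was −0.54 ± 0.12 (adjusted p = 0.177 in edgeR). It was −0.53 ± 0.15 for Dnah5 (adjusted p = 0.364) and −0.36 ± 0.12 for Lrrc23 (adjusted p = 0.537). This difference is made of the same libraries as the 2 genotype comparisons and adds no samples. From 10 to 18 months 0 members and 0% of 15653 genes were called by edgeR, with an unadjusted p under 0.05 for 0 members and 453 genes and a median of 0.09. The falls of Drc1, Dnah5 and Dnah6 at 10 months are therefore not shown by edgeR to differ from the other ages.

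**Figure D4:**
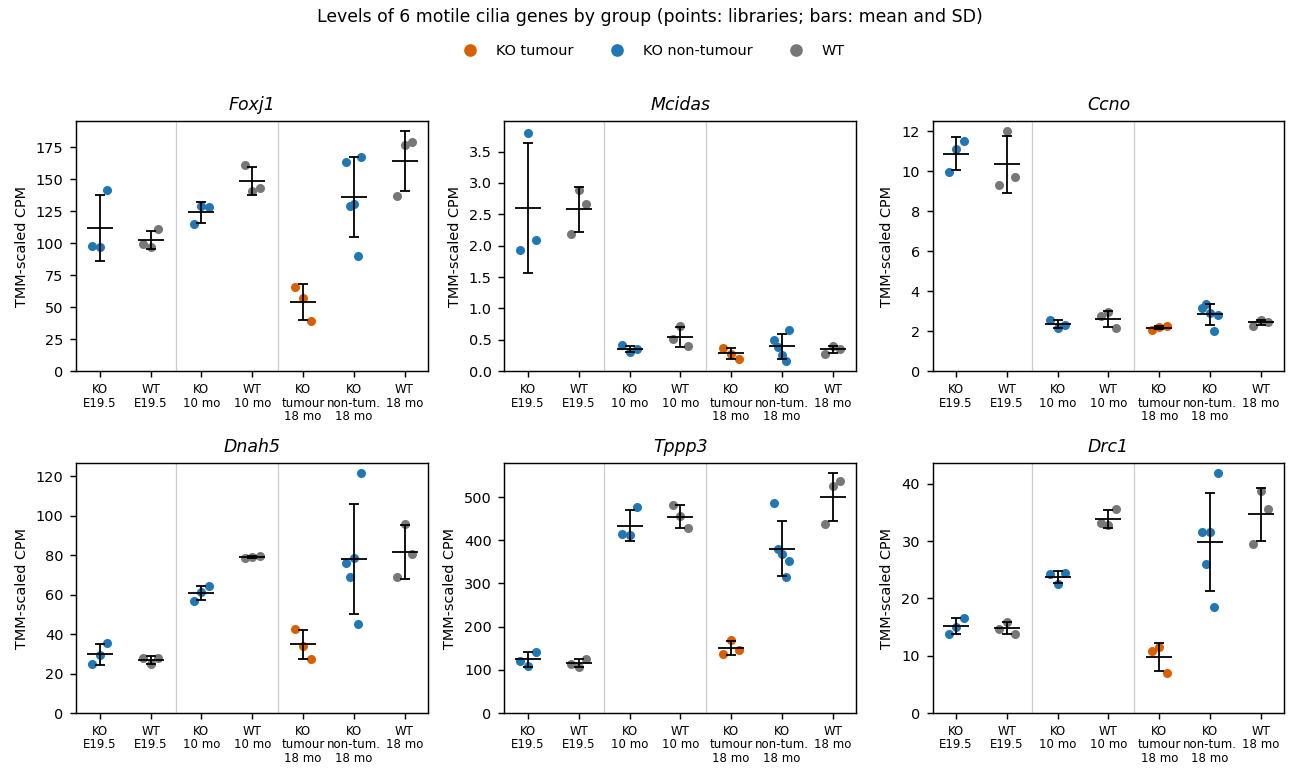
TMM-scaled CPM of 6 motile cilia genes by group, KO left of WT at each age; points are libraries, and bars give the mean and SD. Mcidas and Ccno are highest in embryos, and Foxj1, Dnah5, Tppp3 and Drc1 are lower in the tumours than in the non-tumour lungs of 18 months.

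Lungs of 18 months were also compared with lungs of 10 months. In WT 0 of 40 members were called by edgeR (0% of 15321 genes), with a median of 0.11 and an unadjusted p under 0.05 for 0 members and 833 genes. That median was −0.03 without WT lung 2 of 18 months and 0.23 without WT lung 1. Mcidas had 0.280, 0.401 and 0.354 CPM in WT lungs of 18 months and stood at −0.64 ± 0.37, the lowest value of the members. Dnah11 (0.19 ± 0.095) and Dnah9 (0.21 ± 0.11), both outer arm heavy chains, were the other 2 of the 3 members with the smallest unadjusted p. In KO non-tumour lung 0 members were called (0% of 15455 genes), with a median of 0.18 and an unadjusted p under 0.05 for 0 members and 782 genes. Without KO non-tumour lung 7 that median was 0.03, and without lung 6 it was 0.29. The smallest unadjusted p belonged to 1110017D15Rik (0.24 ± 0.12), Dnah9 (0.39 ± 0.24) and Dnah6 (0.50 ± 0.32). DESeq2 and limma called 0 members in both genotypes. These comparisons share their libraries with the genotype comparisons above.

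The ciliary programme of the KO tumours was then set against that of KO lung without tumour at 18 months. In the tumours 34 of the 40 members fell, against 6.6% of all genes, among them motors, spokes, links, tektins and Foxj1. The median member was 2.54-fold lower. Multicilin and cyclin O, already low in adult lung, and the factors Rfx2 and Rfx3 did not pass the test. Summed over the members, the tumours had 761.9, 803.2 and 608.4 CPM, against 1922, 1712, 1750, 1235 and 2338 CPM in KO non-tumour lungs, without overlap.

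Foxj1 (chr11:116330704-116335499) had 66.1, 56.9 and 39.1 CPM in tumours 1, 3 and 6, all below the lowest KO non-tumour lung at 89.8 CPM (−1.34 ± 0.24, adjusted p = 0.00831). Tppp3 (chr8:105467492-105471422) had 135.8, 168.3 and 147.0 CPM in tumours, against 315.4 to 487.3 CPM in KO non-tumour lungs. It fell by 1.34 ± 0.17 on the log2 scale (adjusted p = 0.00251). Lrrc23 had 9.86, 12.9 and 9.50 CPM in tumours, against 36.4, 33.4, 26.8, 33.2 and 52.4 CPM in KO non-tumour lungs (−1.77 ± 0.24, adjusted p = 0.00304). The smallest adjusted p belonged to 1110017D15Rik, with 7.17, 7.41 and 6.87 CPM in tumours, against 17.5 to 24.1 CPM in KO non-tumour lungs (−1.57 ± 0.15, adjusted p = 0.00104). None of these genes overlapped between the groups.

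In all, 34 of 40 members fell, 0 rose and 6 did not pass, where 6.6% of all 15459 genes were called lower. All 40 log2 fold changes were below 0, with a median of −1.34, against −0.01 for all genes. The groups did not overlap, with tumours lower, in 32 members, against 10.4% of all genes. Of the heavy chain genes 6 of 6 fell, with Dnah11 at −1.52 ± 0.31 and Dnah5 at −1.18 ± 0.29 (42.4, 34.2 and 27.6 CPM in tumours; adjusted p = 0.0286). All 5 dynein intermediate, light and assembly genes fell, among them Dnali1, an inner arm light intermediate chain (−1.50 ± 0.21), Zmynd10 (−1.61 ± 0.24) and Dynlrb2 (−1.23 ± 0.18). The 4 link and ruler genes fell, with Ccdc40, a ruler protein, at −1.44 ± 0.19 and Drc1 at −1.62 ± 0.28. All 8 radial spoke and central pair genes fell, with Rsph1 at −1.46 ± 0.22 and Rsph9 at −0.73, the smallest fall among the called members. Of the tektin and tubulin group 5 of 6 fell, with Tekt2 at −1.63 ± 0.23 and Tekt1 at −1.53 ± 0.22.

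The exceptions were the other 4 regulators, Cfap44 and Cfap52. Cfap44, an axonemal tether protein, stood at −1.21 ± 0.36 (adjusted p = 0.0563). Cfap52, which encodes a protein inside the doublets, had 11.7, 29.0 and 12.3 CPM in tumours, against 23.6, 19.5, 22.9, 14.1 and 28.5 CPM in KO non-tumour lungs. Tumour 3 was thus the highest of the 8 libraries in Cfap52 (−0.30 ± 0.34, adjusted p = 0.602). Mcidas had 0.375, 0.276 and 0.196 CPM in tumours, within the range of 0.164 to 0.658 CPM in KO non-tumour lungs (−0.47 ± 0.50, adjusted p = 0.583). Ccno had 2.08, 2.21 and 2.24 CPM in tumours, against 3.18, 3.35, 2.89, 2.01 and 2.79 CPM in KO non-tumour lungs (−0.39 ± 0.23, adjusted p = 0.299). Rfx2 stood at −0.58 ± 0.22 (adjusted p = 0.112) and Rfx3 at −0.32 ± 0.24 (adjusted p = 0.412).

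**Figure D5:**
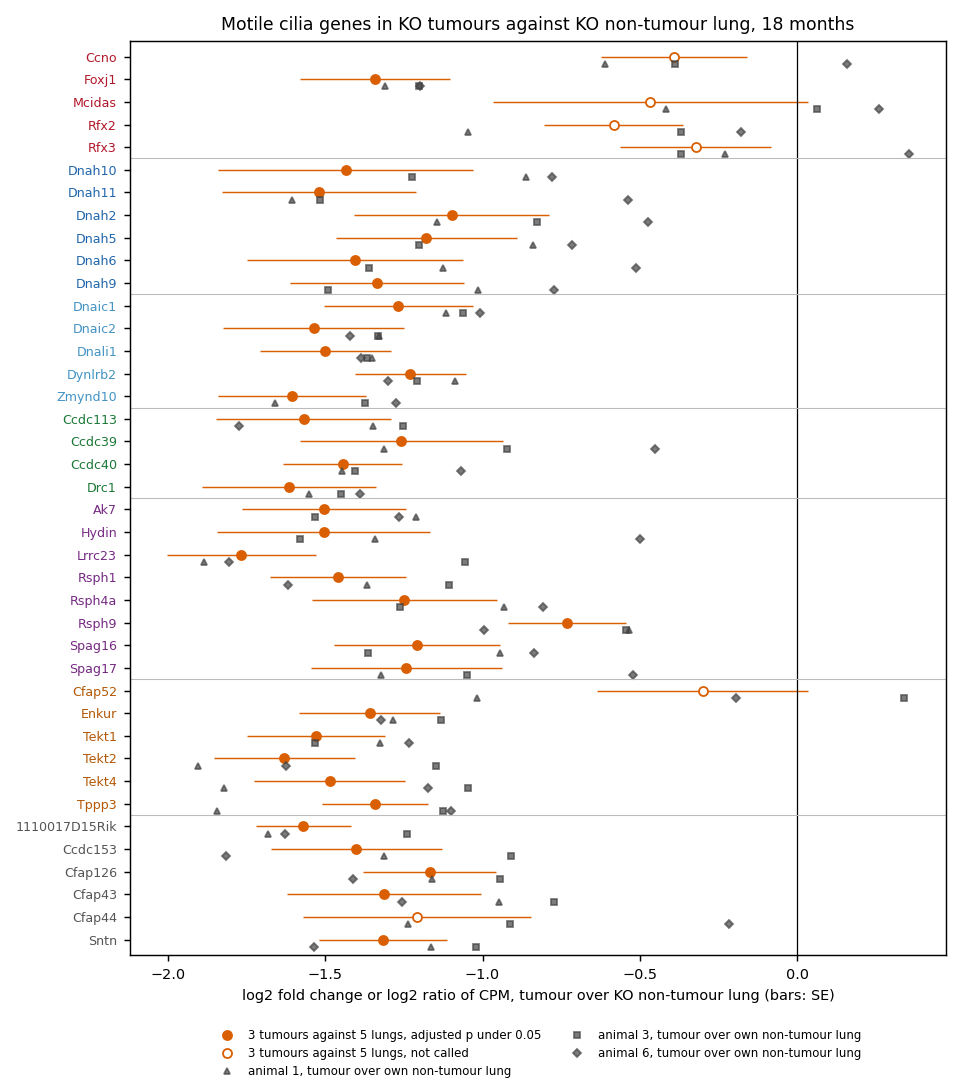
Log2 fold change of each motile cilia gene in 3 KO tumours over 5 KO non-tumour lungs, with its SE (circles, filled where the test passed), and the log2 ratio of CPM within each of animals 1, 3 and 6, paired by sample code (small dark symbols). Nearly all symbols lie to the left of 0, and Cfap52 in animal 3 lies to the right.

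Tumours 1, 3 and 6 carry the same codes as KO non-tumour lungs 1, 3 and 6 and were read as pairs from 3 animals. For lung 6 the labels disagree, since its title numbers it 4 (and that of lung 7 numbers it 5), so the pair of animal 6 rests on the code alone. Deviations from the group mean were also compared over 14550 genes. Those of tumour 1 correlated best with lung 1 (0.465). Tumour 3 (0.0049 with lung 3) and tumour 6 (0.0588 with lung 6) each correlated better with another KO non-tumour lung. In animal 1 the tumour was lower in 40 of 40 members, with a median log2 ratio of −1.26. In animal 3 it was lower in 38, with a median of −1.14, and higher in Mcidas (0.06) and Cfap52 (0.34). In animal 6 it was lower in 37, with a median of −1.09, and higher in Mcidas (0.26), Ccno (0.16) and Rfx3 (0.36). For Foxj1 the ratios were −1.31, −1.20 and −1.20, and for Tppp3 −1.84, −1.13 and −1.10. With the animal as a block, which rests on these 3 pairs and so on the code of lung 6, 12 members were called in place of 34, and the adjusted p was 0.0609 for Tppp3, 0.0520 for Lrrc23, 0.0527 for Tekt2 and 0.0565 for Dnah5. Without tumour 3 the unblocked count was 22. The shares of all genes called in these refits are not given here, so the drop in calls may not be particular to the members. Dnah5 was not called without tumour 3 (adjusted p = 0.0942) or without KO non-tumour lung 1 (0.0543), 2 (0.0509) or 3 (0.0566).

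Other ciliary genes fell in the tumours too. Of 78 further axoneme genes 55 fell and 0 rose, with a median of −1.25, led by Cdhr3 (−1.51 ± 0.17), Iqcg, a link subunit (−1.42 ± 0.18), and Tctex1d4 (−1.55 ± 0.20). Of 12 dynein assembly genes 8 fell (median −0.74), with the assembly factor Dnaaf1 at −1.78 ± 0.22. Of 31 transport genes 9 fell (median −0.31), with Ift43 at −0.88 ± 0.12. Of 15 genes of the multiciliation programme 4 fell (median −0.23), among them the transcription factors Myb (−1.23 ± 0.20) and Trp73 (−1.43 ± 0.28) and the geminin relative Gmnc (−1.55 ± 0.34).

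Markers of other lung cells moved with the same libraries. Of 6 club cell markers 3 fell, with the cytochrome Cyp2f2 at −1.64 ± 0.20, and their summed level was 10220 to 14820 CPM in tumours and 26370 to 50540 CPM in KO non-tumour lungs. All 6 markers of alveolar type 2 cells, which make surfactant, rose, with the phosphate transporter Slc34a2 at 1.68 ± 0.19. Their summed level was 45130 to 99460 CPM in tumours and 17570 to 28780 CPM in KO non-tumour lungs. Of 5 alveolar type 1 markers 1 fell, Hopx (−1.23 ± 0.26), with sums of 1982 to 3120 CPM in tumours and 2900 to 4266 CPM in KO non-tumour lungs. Of 4 goblet cell markers tested 2 rose, Spdef (1.11 ± 0.29) and the mucin Muc5ac (2.61 ± 0.73). The goblet list summed to 29.9 to 195 CPM in tumours and 20.04 to 122 CPM in KO non-tumour lungs. Its mean log2(CPM + 1) ran from 1.85 to 4.16 in tumours and from 1.58 to 2.81 in KO non-tumour lungs, with overlap. The share of all genes called higher in this comparison is not given here. In edgeR 4533 of all 15459 genes had an unadjusted p under 0.05 in either direction. No club cell or alveolar marker was at 0 in any of these libraries. The part of these shifts in the fall of the ciliary genes was not tested.

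The tumours were also compared with WT lungs of 18 months, which shares the tumour libraries with the comparison above. Here 35 of 39 members fell in the tumours, against 7.5% of all genes. Tppp3 had 135.8 to 168.3 CPM in tumours and 436.6 to 538.2 CPM in WT lungs (−1.74 ± 0.16, adjusted p = 0.00667). Foxj1 averaged 54.0 ± 13.7 CPM in tumours and 164 ± 23.5 CPM in WT lungs (SD, n = 3 each; −1.61 ± 0.21, adjusted p = 0.0107).

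Of 39 members tested, 35 fell and 4 did not pass, where 7.5% of all 15346 genes were called lower. The median was −1.50, a 2.83-fold lower level. The groups did not overlap, with tumours lower, in 38 members, against 21.1% of all genes. Other falls were Dnah11 (−1.67 ± 0.17), Ccdc40 (−1.46 ± 0.15), Zmynd10 (−1.78 ± 0.19), Dnah6 (−1.45 ± 0.16), 1110017D15Rik (−1.67 ± 0.18), Tekt1 (−1.66 ± 0.18), Hydin (−1.56 ± 0.17), Drc1 (−1.83 ± 0.21) and Dnaic1 (−1.50 ± 0.18). Ccno (−0.17 ± 0.20, adjusted p = 0.583), Rfx2, Rfx3 and Cfap52 did not pass, and Mcidas was too low to be tested. Without WT lung 2 or WT lung 3 the test called 0 members, with adjusted p values of 0.0514 to 0.0776 for the named genes, and without WT lung 1 it called 30. The shares of all genes called in these refits are not given here, so the loss of calls may not be particular to the members. In this comparison 3 of 6 heart muscle markers also fell, with sums of 22.8 to 176 CPM in tumours and 401 to 517 CPM in WT lungs. Club cell markers fell in 3 of 6 genes, with sums of 10220 to 14820 CPM in tumours and 43700 to 62200 CPM in WT lungs. All 6 alveolar type 2 markers rose, with sums of 45130 to 99460 CPM in tumours and 22270 to 23550 CPM in WT lungs. The share of all genes called higher is not given here, and the part of these shifts was not tested.

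Across the 23 libraries, genes outside the list were ranked by Pearson's r with the members' mean of log2(CPM + 1), over 14511 genes with a mean of at least 1 CPM. The most alike was Ccdc180 (r = 0.988), followed by Cfap57, Maats1, Lrrc48, Spef2, Akap14, Tcte1, Spag6, Nek11 and Uckl1os (r = 0.977). The libraries share ages and tumours, so these values describe a pattern and carry no p. Ccdc180 averaged 15.8 ± 5.36 CPM in KO embryos and 14.3 ± 1.02 CPM in WT embryos. At 10 months it averaged 24.7 ± 1.22 CPM in KO and 31.4 ± 3.10 CPM in WT. At 18 months it averaged 8.77 ± 2.07 CPM in tumours, 27.7 ± 9.07 CPM in KO non-tumour lungs and 30.5 ± 6.05 CPM in WT (SD; n = 5 for KO non-tumour, 3 for the others). Among the members themselves, each set against the mean of the rest, the least alike were Ccno (r = −0.33), Mcidas (−0.31) and Rfx3 (0.07), followed by Lrrc23 (0.65), Tekt2 (0.75) and Cfap52 (0.76). Tppp3, the most abundant member, reached 0.80.

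Of the 40 members 10 overlap another gene of the tables, among them Dnah11, Dnaic1, Dnali1, Ccdc39, Ccdc40, Rsph1, Rsph9, Spag17, Hydin and Cfap43. Whether the counting used strand is not given in the sources used here, so reads of such pairs may not be told apart. The genes named for the falls at 10 months, Drc1, Dnah5 and Dnah6, are not among them.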

How the data were processed

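The count table holds expected counts per gene and the FPKM table fragments per kilobase and 1000000 fragments, both made and deposited by the authors. Per the submitters' processing notes, Trimmomatic 0.36, STAR 2.5.2b and RSEM 1.3.0 were used with build mm10. The expected counts, rounded, went into edgeR 4.0.16 (R 4.3.3), with 1 fit for the groups of each comparison, TMM scaling, filterByExpr, the robust quasi-likelihood F test, Benjamini-Hochberg adjustment over all genes tested and calls at an adjusted p under 0.05. Interactions were fitted over 4 groups. Standard errors (SE) were derived from the F statistic. Levels are TMM-scaled counts per 1000000 (CPM) over all 23 libraries. FPKM was used to compare genes, with values of some genes in embryos and tumours, and in the limma fits. Alternatives were RLE scaling, no filter, DESeq2 1.42.0, limma 3.58.1 on log2(FPKM + 0.1) and log2(FPKM + 1) for genes with a mean of at least 0.1 FPKM, 1 fit over all 7 groups, a replicate block, and each library left out in turn.

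The members and lists were chosen with earlier results of these data known. Per comparison, the text names up to 10 called members per direction by adjusted p. Where none was called, it names up to 3 of those with the smallest unadjusted p. Foxj1, Mcidas, Ccno, Dnah5 and Tppp3 are given throughout, up to 3 genes of each other list, and the 10 genes most alike. Others were named after their values were seen. The result of 1 marker list is not reported here. The titles number the embryos and the males but do not state outright that each number is a separate animal. A p-value covers only the spread among those samples. In 28 pairs of libraries of 1 group, chi-square per degree of freedom was 6.72 to 228 over genes with at least 20 counts, so none was a copy. Tumours and KO non-tumour lungs 1, 3 and 6 were paired by the codes in their labels, although the title of lung 6 numbers it 4; the deviations of paired libraries correlated at 0.0049 to 0.465. The script was tested on simulated data. Promoters were taken from RefSeq tables with Python 3.11.15, and matplotlib 3.10.9 drew the figures.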

Additional observations from a re-analysis of the deposited data

Results flagged for a closer look

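Cfap43, an axonemal gene, had 88.4 CPM in KO 18 months non-tumour lung 7, while the other 4 KO non-tumour lungs had 37.1 to 44.9 CPM. The gap to the nearest lung was 0.848 of the group's range. It was the 1 sample that stood apart in 41 tests of this kind, where chance flags about 1 in 20 groups. The same lung was highest of its group in 35 of the 40 members.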

How the results depend on the processing

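Counts of called members, recomputed under other settings, lay within 1.5 times the reported count in 149 cases, above that in 2 and below it in 12. The shares of all genes called under these settings are not given here, so a changed count may not be particular to the members. At 10 months, KO against WT, the 3 calls became 5 in DESeq2, 1 in limma on log2(FPKM + 0.1), 1 in limma on log2(FPKM + 1), 0 in the fit over all 7 groups, 0 with a replicate block and 0 to 3 with 1 library left out. The replicate numbers there do not pair the lungs (correlations of −0.53 to −0.19). In tumours against KO non-tumour lung the 34 calls became 12 with the animal as replicate block and 22 to 35 with 1 library left out, and in tumours against WT the 35 became 0 to 36 with 1 left out. A replicate block moved no other count beyond 1.5 times. The interaction of 10 months and E19.5 gave 1 call in DESeq2. Median log2 fold changes moved beyond the spread in 3 cases: −1.22 with a replicate block for tumours against WT, and 0.73 and 0.65 in limma for WT at 10 months against E19.5. Signs turned only for genes that were not called. For Mcidas, KO against WT at E19.5 gave −0.051 and −0.019 in the limma fits and −0.033 with a replicate block. With 1 library left out, the ranges at E19.5 were −0.36 to 0.19 for Mcidas, −0.0002 to 0.19 for Ccno, −0.074 to 0.23 for Foxj1 and −0.0043 to 0.19 for Tppp3. At 18 months, KO non-tumour against WT, they were −0.29 to 0.077 for Dnah5 and −0.082 to 0.35 for Mcidas. For 18 against 10 months they were −0.088 to 0.16 for Dnah5 in WT and −0.13 to 0.31 for Mcidas in KO. The cause of these changes was not tested. Depth limits Mcidas most, at under 1 CPM in every adult library.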
